A study of Homo sapiens with 6 samples.

Results

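The genes described here are 10 epithelial identity regulators and surface proteins: EPCAM, ESRP1, ESRP2, GRHL2, OVOL1, ELF3, RAB25, ST14, SPINT1 and SPINT2. They were picked by symbol from a count table of 67026 genes, and each symbol matched 1 row. RNA was sequenced from subcutaneous tumours of PC-3, an established human prostate cancer line, after lentiviral transduction with 1 of 2 kinds of hairpin. Control tumours (shGFP) carry a hairpin against GFP, and knockdown tumours (shVCAN) one against the versican gene VCAN. Versican is a chondroitin sulfate proteoglycan of the extracellular matrix. Both groups were puromycin-selected (2 μg/mL), and 1200000 cells per injection were placed in Matrigel in male NSG mice of 4 to 5 weeks, a strain without mature T, B and NK cells, and followed for 4 weeks. Each group has 3 numbered xenografts, called tumours here. Nothing in the labels says whether they were separate mice, so p-values measure only the spread between these samples. The comparison asks how the transcripts of these genes differ when VCAN is knocked down.

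Epithelial cells keep their identity through regulators that act on transcription and on splicing. GRHL2 (grainyhead family) and OVOL1 (a zinc finger repressor) are transcription factors that favour epithelial genes and oppose the mesenchymal repressor ZEB1, and ELF3 is an ETS factor of epithelial tissues. ESRP1 and ESRP2 are RNA-binding proteins that favour epithelial exons in messenger RNAs such as FGFR2 and CD44. At the cell surface, EPCAM is an adhesion glycoprotein, and ST14 encodes matriptase, a membrane serine protease that activates other proteases and the precursor of hepatocyte growth factor. SPINT1 and SPINT2 encode HAI-1 and HAI-2, Kunitz-type inhibitors of matriptase, and RAB25 is a small GTPase of the RAB11 family that directs recycling endosomes.

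Libraries held 11253058 to 13327617 counts. Values are CPM (read counts scaled to a common library size, with TMM factors), given as mean ± SD with n = 3, and each log2 fold change (with its standard error, SE) divides shVCAN by shGFP. VCAN fell from 10.6 ± 0.809 to 3.66 ± 1.19 CPM, and the groups did not overlap (log2 fold change −1.53, SE 0.207, adjusted p = 4.59e-07). By exact permutation (two-sided) p was 0.1, the lowest value possible with 3 tumours a group. Of the PC-3 markers, KRT8, KRT18, VIM and HOXB13 were present, and KLK2 and KLK3 were at 0. A count of 0 allows up to 3 counts, or 0.212 to 0.279 CPM depending on the library. The 13 mitochondrial messenger RNAs took 13.3 to 16.2% of counts in shGFP and 6.39 to 7.63% in shVCAN. Without them in the table, the tested members had the same calls and nearly the same fold changes (ESRP1 −1.05, EPCAM −0.29). TMM scaling already sets aside genes with extreme shifts, so this rerun could hardly move the members and does not test the mitochondrial shift. Among markers of other cell types, the 12 fibroblast and pericyte genes summed to 875 to 980 CPM in shGFP and 422 to 523 CPM in shVCAN, and 6 of 8 tested fell. Of 10 endothelial genes 6 were tested and 5 fell, with sums of 172 to 180 and 112 to 126 CPM. Keratinocyte and basal epithelial genes summed to 104 to 106 CPM in shGFP and 126 CPM in shVCAN, with KRT1, DSG1 and DSG3 at 0. Of this list 4 were tested: KRT10, KRT15 and SBSN rose (log2 fold changes 0.44, 0.24 and 3.07) and DSC3 fell (−0.48). SBSN had only 5, 1 and 0 counts in shGFP and 21, 31 and 13 in shVCAN. It had enough counts for the test only through the group where it is high, so its fold change is poorly known. The 10 macrophage genes summed to 4.83 to 8.27 and 3.67 to 4.96 CPM, with C1QA, C1QB, C1QC and AIF1 at 0, and 1 of 3 tested fell. The 9 matched skeletal muscle genes summed to 251 to 444 and 194 to 298 CPM, and 5 of 8 tested fell. Of all 16254 tested genes, 21.1% were lower and 19.2% higher at an adjusted p under 0.05. The part of the marker shifts in the members' values was not tested. In a bulk tumour, fewer cells of a type and less RNA per cell cannot be told apart.

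The levels of the 10 genes spanned a wide range. Per kilobase of exonic length, the order in shGFP was SPINT1 (37.7 ± 2.24 CPM per kb), SPINT2 (17.7 ± 0.71), EPCAM (15.5 ± 0.895), ST14 (7.07 ± 0.405), ESRP1 (2.57 ± 0.167) and ESRP2 (1.97 ± 0.298). ELF3 followed at 0.315 ± 0.0572 CPM per kb, and RAB25, GRHL2 and OVOL1 lay at or below 0.103. All neighbours in this order were separated in every shGFP tumour except RAB25 and GRHL2. On this scale SPINT1 lay above 93.5% of 16003 tested genes with a known length, ESRP1 above 39.8% and GRHL2 above 0.875%. In shVCAN the first 6 places were the same, but ESRP1 (1.24 ± 0.144 CPM per kb) and ESRP2 (1.18 ± 0.126) overlapped, and so did RAB25, ELF3, OVOL1 and GRHL2, each with its neighbour. The exonic length counts every annotated exon, so genes with long alternative exons, such as ELF3, are understated. Transcripts of the surface proteins and splicing regulators were thus present in every tumour, whereas GRHL2, OVOL1 and RAB25 had 0 to 10 counts per library.

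Of the 7 genes with enough counts for the test (EPCAM, ESRP1, ESRP2, ELF3, ST14, SPINT1 and SPINT2), all 7 fell with VCAN knockdown (adjusted p under 0.05), and none rose. Among 16254 tested genes, 40.3% were called in either direction, 21.1% as lower and 19.2% as higher. The groups did not overlap for any of the 7, as for 48.7% of all tested genes. The median log2 fold change of the 7 was −0.74, against 0.0014 for all tested genes. The falls differed in size: ELF3, ESRP1, ESRP2 and ST14 changed by −65.7% to −40.1%, while EPCAM, SPINT1 and SPINT2 changed by −20.6% to −17.97%. With an offset for each library's trend with length and GC content, ESRP2 (log2 fold change −0.58) and ST14 (−0.64) came closer to EPCAM (−0.42). SPINT1 was then at −0.25 and SPINT2 at −0.20, while ELF3 (−1.35) and ESRP1 (−1.06) stayed well below them. GRHL2, OVOL1 and RAB25 did not pass the filter on low counts and are given as counts. ELF3 passed it through the control group, where it is high, so the count of 7 depends in part on the filter.

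**Figure D1:**
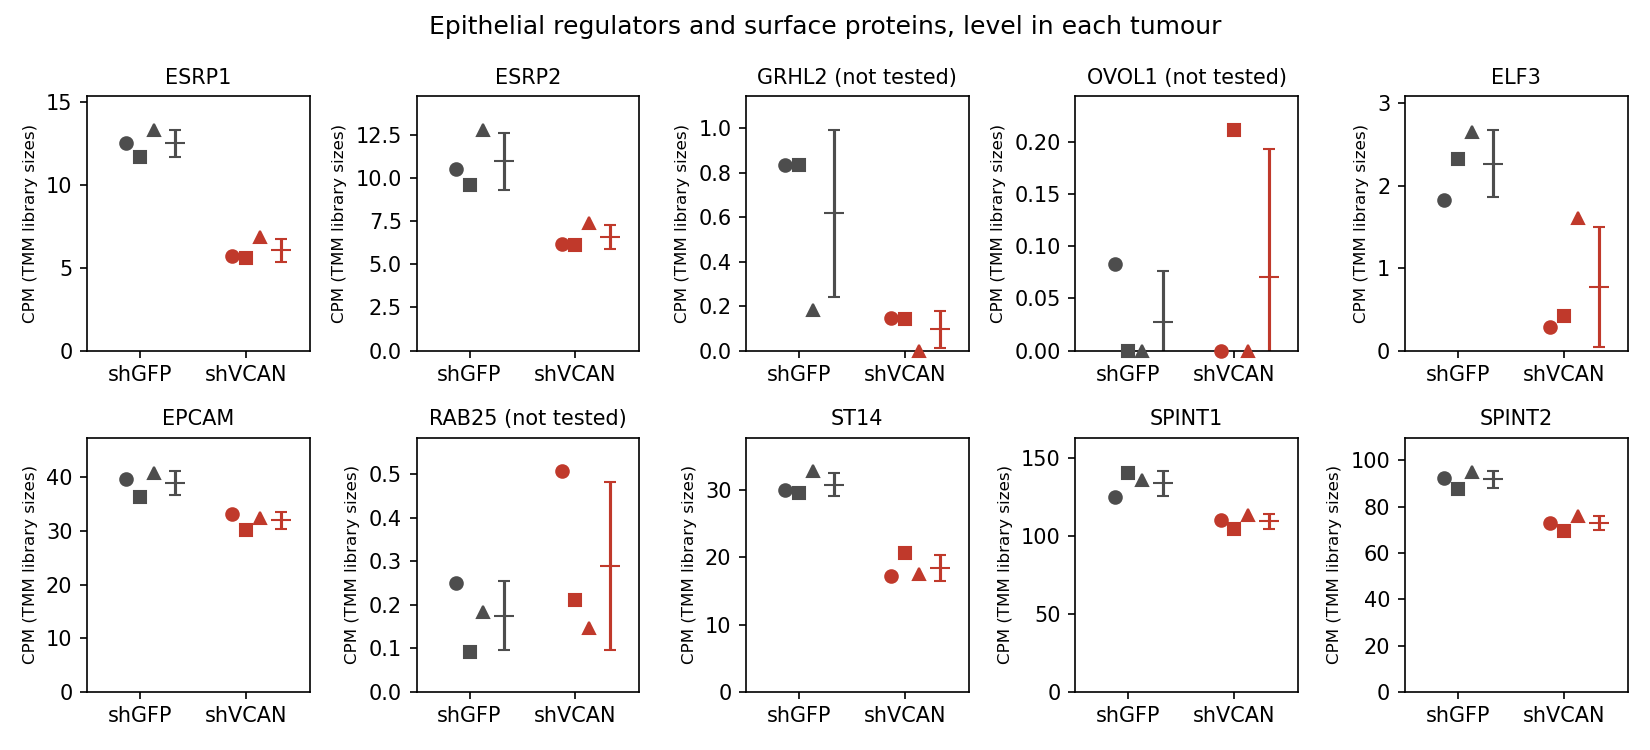
Level of each of the 10 genes in CPM (vertical axes, linear, starting at 0) in each tumour of the shGFP (grey) and shVCAN (red) groups; circle, square and triangle are tumours 1, 2 and 3, and the bars are mean ± SD (n = 3, cut at 0). For the 7 tested genes every red point lies below every grey one, ELF3 in shVCAN tumour 3 (1.61 CPM) stands above the other two knockdown tumours, and the panels marked not tested rest on few counts.

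The splicing regulators ESRP1 and ESRP2 both fell. ESRP1 (chromosome 8, ENSG00000104413.18) had 12.6, 11.7 and 13.3 CPM in shGFP tumours 1, 2 and 3 and 5.73, 5.57 and 6.86 CPM in shVCAN tumours 1, 2 and 3. The lowest control was well above the highest knockdown tumour, and the spread within a group was small beside the gap. The log2 fold change was −1.05 (SE 0.164, adjusted p = 4.98e-06), a change of −51.7%. ESRP2 (chromosome 16, 68229111 to 68238102 on GRCh38, ENSG00000103067.14) had 10.5, 9.57 and 12.8 CPM in shGFP and 6.17, 6.14 and 7.37 CPM in shVCAN. The groups were again apart, with shGFP tumour 3 the highest. The log2 fold change was −0.74 (SE 0.171, adjusted p = 0.000818), a change of −40.1%. The neighbouring gene NFATC3, on a shared 4.01% of the exonic bases of ESRP2 together with other genes, also fell (log2 fold change −0.63). No source used here says whether reads were counted by strand.

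The epithelial transcription factors of the set were scarce. GRHL2 (chromosome 8) had 10, 9 and 2 counts in shGFP tumours 1, 2 and 3 and 2, 2 and 0 in shVCAN. The sums were 21 and 4, a ratio of 0.154 (95% exact Poisson interval 0.0385 to 0.457, counting error only), and shGFP tumour 3 had no more reads than 2 of the knockdown tumours. With no filter, the fit gave GRHL2 a log2 fold change of −2.56 with an adjusted p of 0.0636. OVOL1 (chromosome 11, 65787022 to 65797219) had 1 count in all shGFP tumours together and 3 in all shVCAN tumours, too few for a ratio.

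ELF3 (chromosome 1, 202007945 to 202017188, ENSG00000163435.16) was the transcription factor with a called fall. Its counts were 22, 25 and 29 in shGFP and 4, 6 and 22 in shVCAN, or 1.83, 2.32 and 2.65 CPM against 0.29, 0.423 and 1.61 CPM. Tumours 1 and 2 of shVCAN were far below the controls, whereas tumour 3 came close to the lowest of them. ELF3 thus passed the filter on low counts through the control group, where it is high. With no filter its log2 fold change was −1.52 (adjusted p = 0.00283). The log2 fold change was −1.54 (SE 0.472, adjusted p = 0.0093), with a 95% confidence interval from −2.51 to −0.58. Leaving out shVCAN tumour 3 made it −2.63 (adjusted p = 0.000477), and leaving out shVCAN tumour 1 made it −1.16 and ended the call (adjusted p = 0.0744). Without each of the other libraries in turn the adjusted p lay between 0.0144 and 0.0466. Of the exonic bases of ELF3, 18.5% are shared with other genes, among them ELF3-AS1, which had 4 to 12 counts in shGFP and 8 to 11 in shVCAN.

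EPCAM (chromosome 2, 47345158 to 47387601, ENSG00000119888.11) fell slightly. It had 39.7, 36.4 and 40.7 CPM in shGFP and 33.2, 30.3 and 32.5 CPM in shVCAN. All controls were above all knockdown tumours, by a narrow margin. This gave a log2 fold change of −0.29 (SE 0.0886, adjusted p = 0.0102, 95% confidence interval −0.47 to −0.10). Without shGFP tumour 3 the adjusted p was 0.0564. RAB25 (chromosome 1, 156061160 to 156070514) had 3, 1 and 2 counts in shGFP and 7, 3 and 2 in shVCAN. The ranges overlapped, and the ratio of the sums, 6 and 12, was 1.62 with a counting interval from 0.562 to 5.26, so neither a rise nor a fall was detectable at this depth.

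Sequences before the start sites are shown to set a nearly silent member beside the most abundant one. The RefSeq table (GRCh38.p14) held windows for 3 of the 10 genes, namely ELF3, RAB25 and SPINT1. The window of RAB25 is chr1:156060910-156061159 and that of SPINT1 chr15:40843798-40844017, both on the plus strand and ending at the base before the annotated gene. Capitals mark the E-box CAGGTG read on either strand, a motif that ZEB and SNAI repressors are known to bind.
RAB25: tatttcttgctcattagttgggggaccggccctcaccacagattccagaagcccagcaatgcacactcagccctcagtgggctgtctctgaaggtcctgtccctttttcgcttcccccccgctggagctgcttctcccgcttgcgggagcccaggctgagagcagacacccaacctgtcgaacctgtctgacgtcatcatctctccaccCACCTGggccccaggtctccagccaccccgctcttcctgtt
SPINT1: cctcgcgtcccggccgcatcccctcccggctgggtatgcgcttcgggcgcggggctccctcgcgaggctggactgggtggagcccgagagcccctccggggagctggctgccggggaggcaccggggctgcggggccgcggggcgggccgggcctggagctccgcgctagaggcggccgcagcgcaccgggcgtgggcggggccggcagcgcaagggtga
The RAB25 window has 1 E-box, 41 bases before the start, and the SPINT1 window has none. Over their full 250 bases, G and C made up 60.4% of the RAB25 window and 80.4% of the SPINT1 window. Windows of that length held an E-box in 17.5% of 35116 RefSeq starts. The ELF3 window (chr1:202010337-202010586) also holds 1 E-box, 120 bases before its RefSeq start. The window of a second SPINT1 start (chr15:40844227-40844476) holds 1 too, 26 bases before that start. Unlike the windows above, these lie inside the annotated genes, which begin at 202007945 (ELF3) and 40844018 (SPINT1). The ELF3 E-box thus lies within ELF3, and its stretch also reaches into ELF3-AS1, which ends at 202010463. Both E-boxes are shown in stretches of 30 bases on the plus strand.
ELF3 chr1:202010455-202010484: gaatatgcaaatCACCTGgggccaggagcc
SPINT1 chr15:40844439-40844468: tcccgggctgatCAGGTGtgtctcctcctc
The grainyhead-type motif AACNNGTT was in 3% of all windows and the OVOL-type motif CCGTTA in 2.45%, both strands read, and neither was in the 4 windows of the members. These letters describe the sequence and show no binding.

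The protease ST14 and both of its inhibitors fell, and the fold change was larger for ST14. ST14 (chromosome 11, 130159562 to 130210376, ENSG00000149418.11) had 29.98, 29.5 and 32.8 CPM in shGFP and 17.1, 20.6 and 17.4 CPM in shVCAN. The groups were far apart, with shVCAN tumour 2 the highest of the knockdown tumours. The log2 fold change was −0.74 (SE 0.107, adjusted p = 1.61e-06), a change of −40.2%, and this was the smallest p of the 7. SPINT1 (chromosome 15, 40844018 to 40858207, ENSG00000166145.14) had 124.8, 140.2 and 135.9 CPM in shGFP and 110.1, 104.3 and 113.5 CPM in shVCAN. The groups did not overlap, although the raw counts, 1488 to 1509 in shGFP and 1478 to 1556 in shVCAN, did. Its log2 fold change was −0.29 (SE 0.0613, adjusted p = 0.000312). SPINT2 (chromosome 19, 38244035 to 38292614, ENSG00000167642.13) had 92.5, 87.8 and 95.1 CPM in shGFP and 73.1, 69.7 and 76.0 CPM in shVCAN. The gap between the groups exceeded the spread within them, with a log2 fold change of −0.33 (SE 0.0656, adjusted p = 0.000137). The 2 inhibitors thus differed between groups by nearly the same amount.

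How far the smaller falls reach depends on the scaling of the libraries. Scaled by library size alone, all 7 log2 fold changes were still below 0, but EPCAM (−0.12, adjusted p = 0.297) and SPINT1 (−0.12, adjusted p = 0.125) were not called, and SPINT2 (−0.17, adjusted p = 0.0461) only just. ESRP1 (−0.88), ESRP2 (−0.57), ST14 (−0.57) and ELF3 (−1.38) remained called. This scaling lifted the median of all tested genes to 0.168, and 73.4% of calls were then higher in place of 47.7%. The log2 fold changes of the 7 genes were higher by 0.16 to 0.17 than with TMM.

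**Figure D2:**
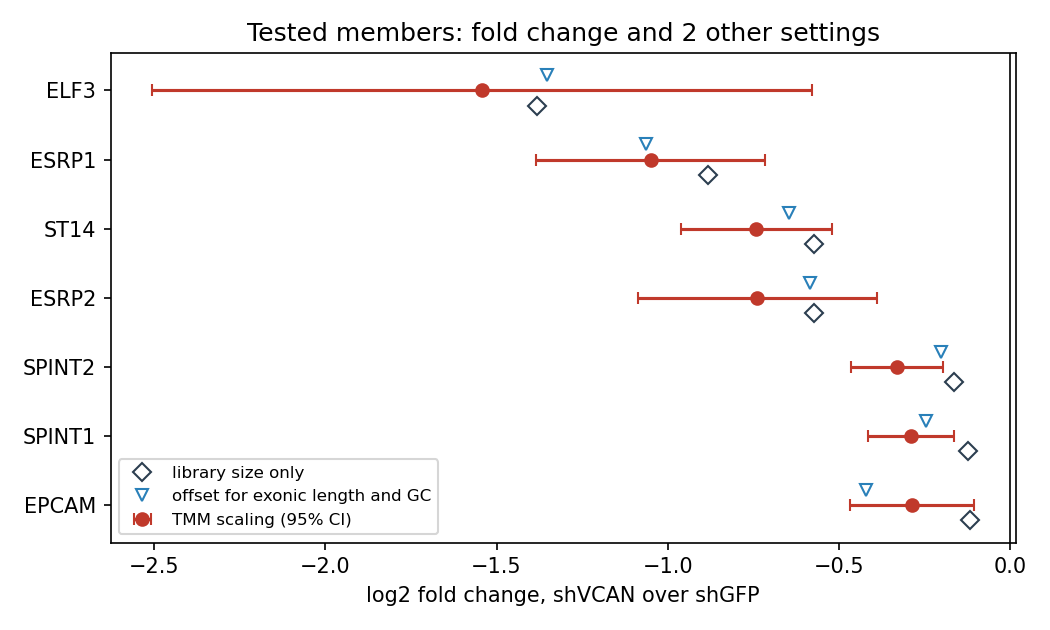
Log2 fold change of the 7 tested genes (horizontal axis, shVCAN over shGFP) with TMM scaling (filled red circles, bars are 95% confidence intervals), with library size only (open diamonds) and with a correction for GC content and exonic length (open triangles). All points lie below 0; ELF3 has the widest interval, from −2.51 to −0.58, and the diamonds of EPCAM and SPINT1 lie at −0.12.

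Ratios of counts within a library do not depend on the scaling, but they still carry each library's trend with length and GC content. In all, 6 were computed, chosen after the values were seen. Per 100 SPINT1 reads there were 24.0, 21.1 and 24.1 ST14 reads in shGFP and 15.6, 19.8 and 15.4 in shVCAN. Per 100 SPINT2 reads there were 33.5 ± 1.05 ST14 reads in shGFP and 25.3 ± 3.69 in shVCAN. ST14 was thus lower relative to either inhibitor in 3 of 3 knockdown tumours than in any control. Per 100 EPCAM reads there were 31.7, 32.1 and 32.7 ESRP1 reads in shGFP and 17.3, 18.4 and 21.1 in shVCAN. ESRP2 went from 28.0 ± 2.91 to 20.5 ± 2.06 reads per 100 EPCAM reads, and the groups did not overlap. ESRP2 and EPCAM had log2 fold changes of −0.74 and −0.29 with TMM, but lay closer (−0.58 and −0.42) with the length and GC offset. ESRP1 and ESRP2 lay further apart with that offset (−1.06 and −0.58) than without it (−1.05 and −0.74). Per 100 ESRP2 reads there were 115 ± 9.78 ESRP1 reads in shGFP and 92.3 ± 1.27 in shVCAN, and the groups did not overlap. SPINT1 per 100 SPINT2 reads was 146 ± 12.6 and 149.9 ± 0.696, with overlapping groups. The exact two-sided permutation p was 0.1 for the first 5 ratios (0.12 adjusted over the 6) and 0.7 for the last, and 3 against 3 tumours cannot go below 0.1.

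**Figure D3:**
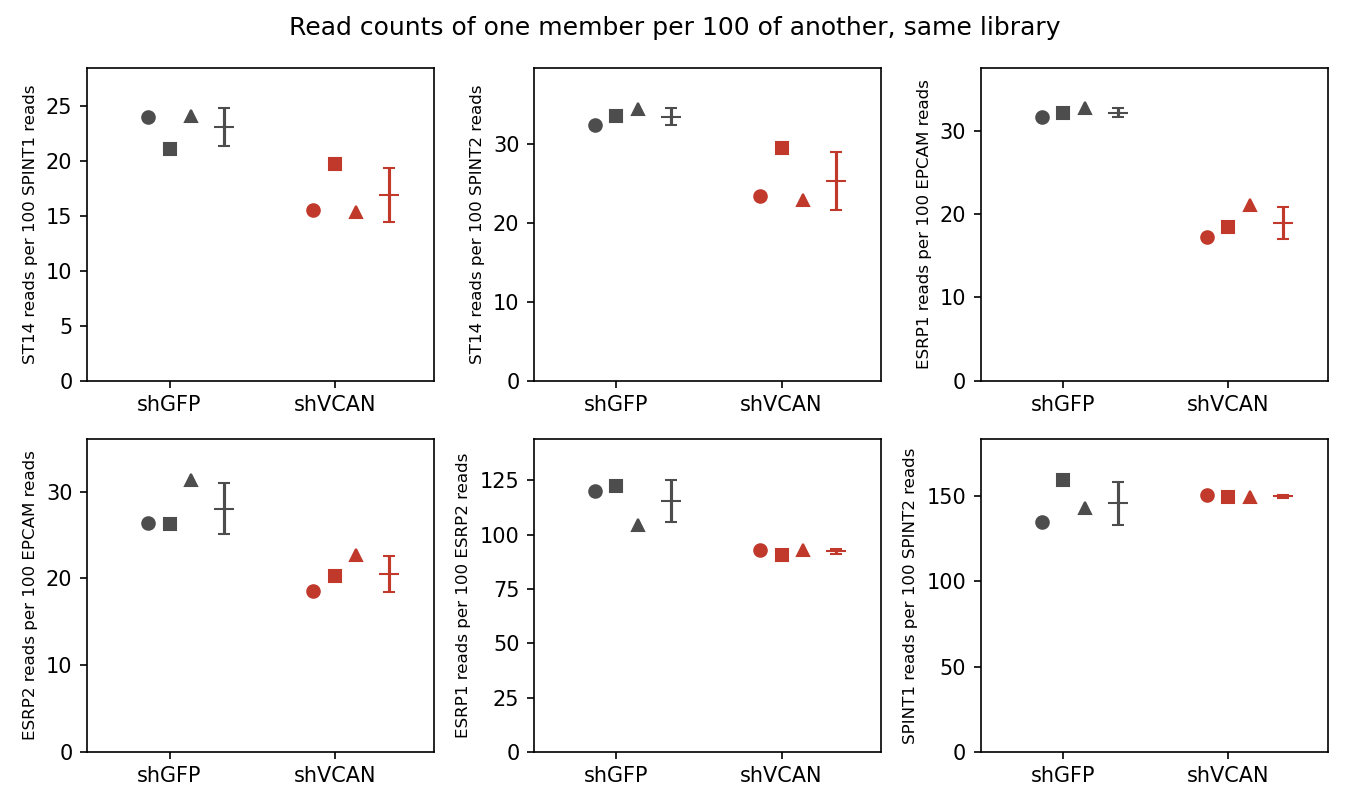
Reads of 1 gene per 100 reads of another in the same library (vertical axes, linear, starting at 0) for 6 pairs, in shGFP (grey) and shVCAN (red); circle, square and triangle are tumours 1, 2 and 3, and the bars are mean ± SD (n = 3). In the first 5 panels the groups are apart, as for ESRP1 per 100 EPCAM reads (31.7 to 32.7 against 17.3 to 21.1), and in the last panel they overlap.

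Genes related to the members by role were read from the same fit. Over 8 lists with 135 genes, 112 were tested, of which 46 fell and 14 rose. Of all 16254 tested genes, 21.1% were called lower and 19.2% higher. With library size alone 28 related genes fell and 25 rose, while 1890 of all tested genes were called lower and 5228 higher. The counts for each list below are to be read beside these shares, and no list was tested as a set. Genes named in the next paragraphs are from the called genes with the smallest p in each list, except where they are said to have been chosen after their values were seen.

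Among 17 other epithelial transcription factors, 12 were tested, 7 fell, 1 rose and 4 were not called (median log2 fold change −0.45). KLF4, a zinc finger factor of differentiating epithelia, fell from 14.8 ± 1.19 to 6.76 ± 0.678 CPM. The pioneer factor FOXA1 fell from 51.3 ± 2.73 to 33.4 ± 2.04 CPM. TFAP2A fell from 19.9 ± 1.66 to 14.6 ± 1.48 CPM, but was not called under library size scaling (adjusted p = 0.0652) or with the length and GC offset (adjusted p = 0.0568). The paralogs of the members were chosen after their values were seen. GRHL1 fell from 3.10 ± 0.398 to 1.51 ± 0.549 CPM (adjusted p = 0.0165), a call lost without shGFP tumour 2 (0.0769) or shVCAN tumour 3 (0.0877). OVOL2 was at 0.957 ± 0.3 and 0.693 ± 0.349 CPM and was not called (adjusted p = 0.525).

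In a list of 10 genes built around mesenchymal repressors of epithelial genes, 7 were tested, 3 fell, none rose and 4 were not called. The list also takes in genes not established as direct repressors, such as PRRX1 and the untested MIR200CHG. ZEB2 fell from 69.7 ± 9.9 to 41.3 ± 4.97 CPM. PRRX1 fell from 19.8 ± 1.45 to 5.72 ± 0.405 CPM, and TCF4 from 85.0 ± 4.71 to 71.1 ± 1.64 CPM, the latter call being lost with library size alone (adjusted p = 0.296). ZEB1, the counterpart of GRHL2 and OVOL1 and chosen here after its values were seen, was at 68.2 ± 7.58 CPM in shGFP and 72.5 ± 2.19 CPM in shVCAN. Its log2 fold change was 0.09 (SE 0.0745, adjusted p = 0.385), but 0.25 with library size alone (adjusted p = 0.00608). The summed fibroblast and pericyte markers were lower in the same shVCAN tumours (422 to 523 against 875 to 980 CPM), and their part in the falls of ZEB2, PRRX1 and TCF4 was not tested.

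Of 12 splicing regulators known to act on exons of the ESRP type, all were tested, 6 fell, 1 rose and 5 were not called. The polypyrimidine tract protein PTBP1 fell from 323 ± 8.2 to 178 ± 5.63 CPM, and RBM24 rose from 3.64 ± 0.891 to 8.05 ± 0.5 CPM. CELF1 and HNRNPM fell by 0.23 and 0.18 on the log2 scale, calls lost with library size alone (adjusted p = 0.442 and 0.842) and with the length and GC offset (0.41 and 0.44). RBFOX2 and RBM47, chosen after their values were seen, fell by 0.72 and 0.80 on the log2 scale (adjusted p = 0.00396 and 0.00907). Among 13 genes with ESRP-regulated exons, 5 fell, 2 rose and 6 were not called. CD44 rose from 157 ± 4.37 to 218 ± 10.3 CPM, while LSR (a tricellular junction receptor) fell from 25.9 ± 3.61 to 11.1 ± 0.814 CPM. MAGI1 fell from 31.9 ± 1.17 to 20.7 ± 0.821 CPM and the kinase SLK from 42.5 ± 1.55 to 31.3 ± 1.55 CPM. These are sums over all transcripts of a gene, and the use of single exons was not measured.

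Around matriptase, 12 of 23 proteases, substrates and receptors were tested, 4 rose, 3 fell and 5 were not called. F2RL1 (PAR2, a receptor that matriptase can cleave) rose from 171 ± 2.85 to 246 ± 13.7 CPM. Urokinase (PLAU), whose precursor matriptase activates, rose from 8253 ± 376 to 9843 ± 136 CPM. The transmembrane substrate CDCP1 fell from 345 ± 15.9 to 228 ± 3.86 CPM and the serpin SERPINA5 from 39.5 ± 6.38 to 15.1 ± 2.5 CPM. Hepatocyte growth factor (HGF), chosen after its values were seen, rose from 1.08 ± 0.446 to 3.31 ± 0.307 CPM (adjusted p = 0.000571). Its activator HGFAC, also chosen afterwards, rose from 1.17 ± 0.508 to 3.26 ± 1.07 CPM (adjusted p = 0.00228). Both rest on few reads: HGF had 19, 10 and 8 counts in shGFP and 41, 48 and 49 in shVCAN. HGFAC had 20, 7 and 13 counts in shGFP and 29, 60 and 47 in shVCAN. The sizes of both rises are poorly known, with 95% confidence intervals of 0.86 to 2.32 (HGF) and 0.69 to 2.23 (HGFAC) on the log2 scale. Prostasin (PRSS8), a protease of the same epithelial cascade and also chosen afterwards, was at 2.01 ± 0.706 and 0.868 ± 0.481 CPM with overlapping groups. Its log2 fold change was −1.20 (adjusted p = 0.0325), a call lost under the DESeq2 Wald test (0.0529), with library size alone (0.0611) and without any of 4 single tumours (shGFP 2 or 3, shVCAN 2 or 3, 0.0705 to 0.189).

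For EPCAM, 15 of 16 relatives, partners and cleaving proteases were tested, 5 fell, 2 rose and 8 were not called. The tetraspanin TSPAN8 fell from 11.8 ± 0.555 to 5.98 ± 1.04 CPM, and the gamma-secretase subunits APH1B and NCSTN fell from 15.5 ± 1.53 to 10.0 ± 1.53 and from 89.8 ± 3.33 to 67.7 ± 0.133 CPM. FHL2, a LIM protein that binds the cleaved EPCAM tail, rose from 65.5 ± 3.89 to 104 ± 10.4 CPM. Of 18 RAB25 relatives and recycling endosome partners, 8 fell, 3 rose and 7 were not called. The RAB11 effector RAB11FIP4 rose from 9.63 ± 1.07 to 21.6 ± 2.09 CPM. The motor MYO5C fell from 59.8 ± 2.98 to 29.4 ± 1.13 CPM, EHD1, an ATPase of recycling endosomes, from 185 ± 6.32 to 122 ± 3.97 CPM, and the integrin ITGA5 from 73.2 ± 2.83 to 49.4 ± 3.33 CPM.

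Of 30 other epithelial transcripts under GRHL and OVOL factors, 26 were tested, 11 fell, 1 rose and 14 were not called (median −0.31). With library size alone 6 fell and 2 rose. The adhesion protein E-cadherin (CDH1) lost most, with a log2 fold change of −2.20 (SE 0.181). Claudin 4 (CLDN4) fell by 0.74 and keratin 18 (KRT18) by 0.54 on the log2 scale. CLDN3 and KRT19 were chosen after their values were seen. CLDN3, the 1 gene that rose, went from 41.5 ± 4.12 to 51.2 ± 1.12 CPM (adjusted p = 0.00338). KRT19, among those not called, was at 601 ± 25.1 and 575 ± 15.2 CPM (adjusted p = 0.299). LSR, listed here too, is described above. Earlier results of these data already showed falls among epithelial markers, so these counts are no independent evidence of a direction.

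**Figure D4:**
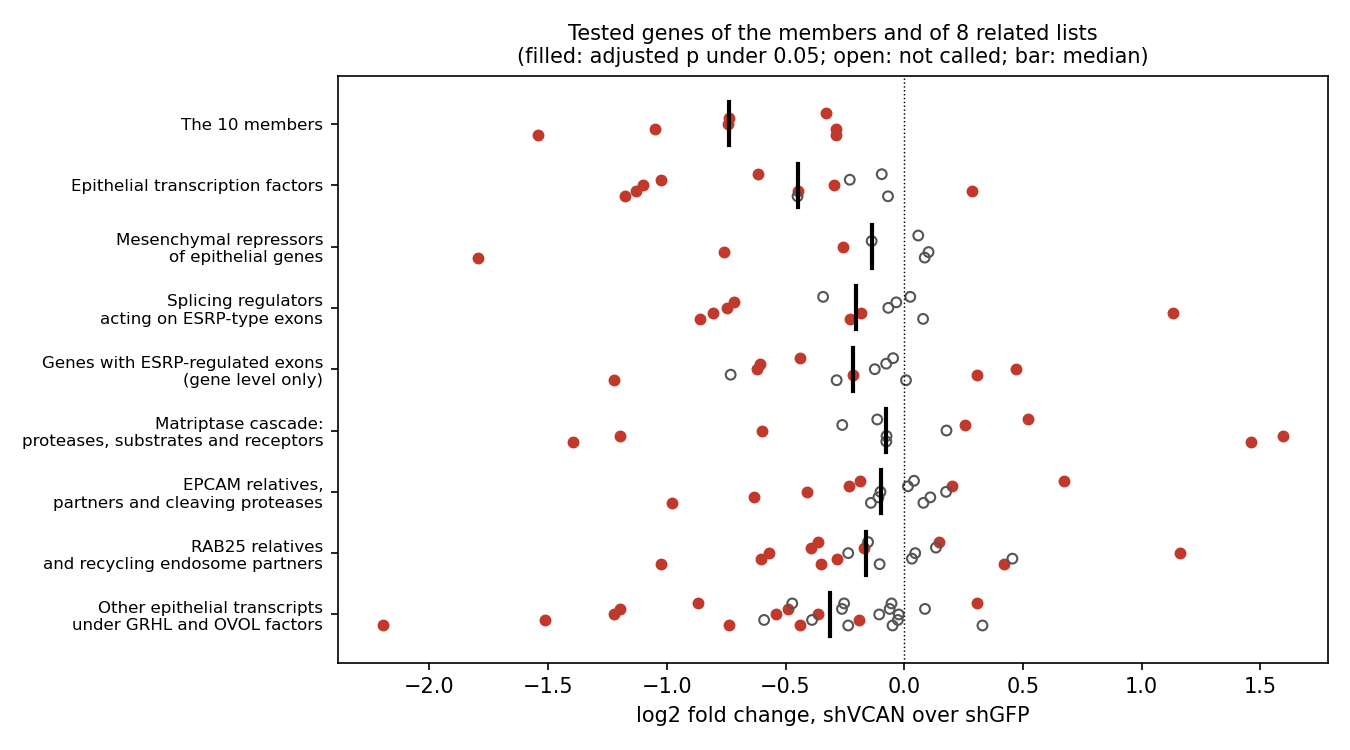
Log2 fold change (horizontal axis, shVCAN over shGFP) of the tested genes among the 10 members and in 8 related lists; filled points had an adjusted p under 0.05, open points were not called, the black bar is the list's median, and the vertical position within a list only separates the points. The 7 tested members lie between −1.54 and −0.29, while the matriptase list spans −1.39 to 1.59 around a median of −0.08.

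The member with the smallest p, ST14, was set beside all tested genes of at least 5 CPM to find those with the most similar pattern over the 6 tumours. Likeness was the root mean square difference of log2 CPM after each gene's mean was subtracted. BCL9, a coactivator of beta-catenin, was closest (0.0303), followed by SCMH1 (a Polycomb protein, 0.0401) and DOCK6 (a guanine nucleotide exchange factor, 0.048). BCL9 had 39.0 to 43.2 CPM in shGFP and 22.7 to 27.1 CPM in shVCAN, with tumour 2 the highest in shVCAN, as for ST14.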

How the data were processed

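RNA of 6 PC-3 xenograft tumours (3 shGFP, 3 shVCAN) was read in pairs on a NovaSeq, per the labels' protocols. The deposited values are raw read counts for each gene. The submitters' processing notes name Trim Galore, STAR, DESeq2 and hg38. No source used here gives the counting program, its strand setting or how mouse reads were handled, so mouse reads may be among the counts. Of 67071 rows, 45 second copies of pseudoautosomal genes, all at 0, were left out.

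Groups were taken from the sample titles. All genes were fitted with the edgeR 4.0.16 quasi-likelihood test in R 4.3.3 (TMM scaling, filterByExpr, group as the only term), and calls use a Benjamini-Hochberg adjusted p under 0.05 over 16254 genes. The SE is the log2 fold change divided by the square root of F, and confidence intervals are 95%. Exonic length, shared exonic bases and positions come from GENCODE 29 (GRCh38), and GC content from the longest transcript. The fit was tested on simulated data with few changed genes, a single dispersion and no built-in shift in library composition. That test therefore does not check the scaling of these libraries. Counts come from amplified libraries, so Poisson intervals and the limit of 3 counts cover counting error only. Library pairs had a chi-square per gene of 3.53 to 6.90 within groups and 52.8 to 92.7 between groups, so no 2 libraries of a group agreed within sampling noise.

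The members and the gene lists were chosen with earlier results of these data known. Named genes are the members, VCAN, up to 4 called genes with the smallest p in each list, and the 3 genes most like the member with the smallest p; some of these are not reported here. Alternatives were other scalings (DESeq2 size factors, upper quartile, library size), other filters (none, 1 CPM in 3 samples), DESeq2 1.42.0, limma-voom (limma 3.58.1), the replicate number as a block, an adjusted p under 0.01, a length and GC offset, and each tumour left out. Leaving out mitochondrial messenger RNAs, and the ratios without each tumour, were added after the data were seen. When a tumour is left out, the smaller group is assumed to vary like the other. A skeletal muscle gene (MYLPF) had no matching row. No result met the criteria for a separate look: groups of 3 are not tested for outliers, and the series has 1 contrast.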

Additional observations from a re-analysis of the deposited data

How the results depend on the processing

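All 7 tested members lay below 0 under every scaling, filter, tool and left-out tumour that was run. The number called lower was 7 with DESeq2 size factors, upper quartile factors, either filter, the DESeq2 Wald test, limma-voom, the length and GC offset and the table without mitochondrial messenger RNAs, 5 with library size only, 6 at an adjusted p under 0.01 (without EPCAM). Without single tumours 7 to 8 of the 10 members were called lower, GRHL2 among them without shGFP tumour 3, shVCAN tumour 1 or shVCAN tumour 2, where it passed the filter through its 2 high control libraries, but only 6 of the 7 without shGFP tumour 3 (EPCAM lost) or shVCAN tumour 1 (ELF3 lost). With library size only, 5228 genes were called higher and 1890 lower, and in the related lists 25 and 28. Without single tumours, 2596 to 3086 genes were called higher and 2938 to 3438 lower, related genes numbered 11 to 15 and 35 to 44, and VCAN lay between −1.83 and −1.36. SPINT1 per 100 SPINT2 reads, 149.9 against 146, had a ratio between groups of 0.99 without shGFP tumour 1 and 1.08 without shGFP tumour 2, the lowest and highest values.

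The replicate numbers are shared by the groups, but same-numbered tumours did not deviate together (correlations 0.0176, 0.0157 and −0.0271). With the replicate block 7 members were again called lower and none higher, and ELF3 had a log2 fold change of −1.70 (adjusted p = 0.00523). Depth limits GRHL2, OVOL1 and RAB25, which had 25, 4 and 18 counts over all 6 libraries.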
